A study of Bos taurus with 12 samples.

Results

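Amphiregulin and the other components of epidermal growth factor (EGF) receptor signalling were followed across 4 groups of cattle embryos. The members were every array probe set whose single gene symbol is AREG, EREG, HBEGF, TGFA, EGF, EGFR, ERBB2, ERBB3 or ERRFI1. They came to 5 of the 9155 genes measured, through 10 of the 24016 probe sets tested: AREG with 1 probe set, EGF with 1, EGFR with 2, ERBB3 with 2 and ERRFI1 with 4. EREG, HBEGF, TGFA and ERBB2 had no probe set carrying their symbol, alone or beside another gene, and were not analysed here.

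RNA was measured on 12 Affymetrix bovine arrays, 3 per group, each array holding 1 pool of embryos. Day 7 in vivo and Day 7 in vitro were pools of 25 blastocysts obtained after superovulation or by in vitro fertilization (IVF). Day 13 in vivo and Day 13 in vitro were pools of 5 conceptuses that had been transferred as blastocysts of either origin, 10 to a recipient heifer, and recovered on Day 13, so every Day 13 conceptus had grown in a uterus. All groups share the 75 ng of total RNA per array and the 2 amplification cycles, and the labels name no breed, culture medium or donor. The labels call the pools biological replicates but do not say which conceptuses shared a heifer.

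The EGF family ligands, amphiregulin (AREG) among them, are made as membrane proteins and released by sheddases of the ADAM family. They bind EGFR, and with partners ERBB2 and ERBB3, which pass the signal through adaptor proteins to the RAS and ERK cascade and to PI3K and AKT. ERK activity induces transcription factors such as EGR1, FOS and MYC and also its own inhibitors. ERRFI1 is an induced inhibitor of another kind that binds the EGFR kinase directly. In embryos and uterus, EGF family signals are known from trophoblast growth and implantation, and AREG is also known as an ovarian follicle gene.

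Values are log2 intensities, on which a difference of 1 is a 2-fold difference. A probe set is called background at or below 3.39, a level that 99% of the readings of 48 controls for foreign sequences do not exceed. By it, 3 member probe sets were above background, 1 of AREG and 2 of ERRFI1, each on at least 3 arrays. The other 7 stayed at background on all 12 arrays. In the pools, fewer cells of a type and less RNA per cell cannot be told apart.

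The ligand amphiregulin was above background in Day 13 in vitro conceptuses and in no other group. Its probe set read 2.26 in each of the 3 Day 7 in vivo pools. It read 2.26, 2.23 and 2.26 in the Day 7 in vitro pools, and 2.26, 2.26 and 2.42 in the Day 13 in vivo pools. In the Day 13 in vitro pools it read 7.99, 5.38 and 6.72, a mean of 6.70 ± 1.30 (SD, n = 3). All 3 of these arrays lay above the highest value elsewhere, and they spread over 2.60 among themselves. The other 9 arrays were at the floor of the table, where values have neither an order nor a spread to compare.

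**Figure D1:**
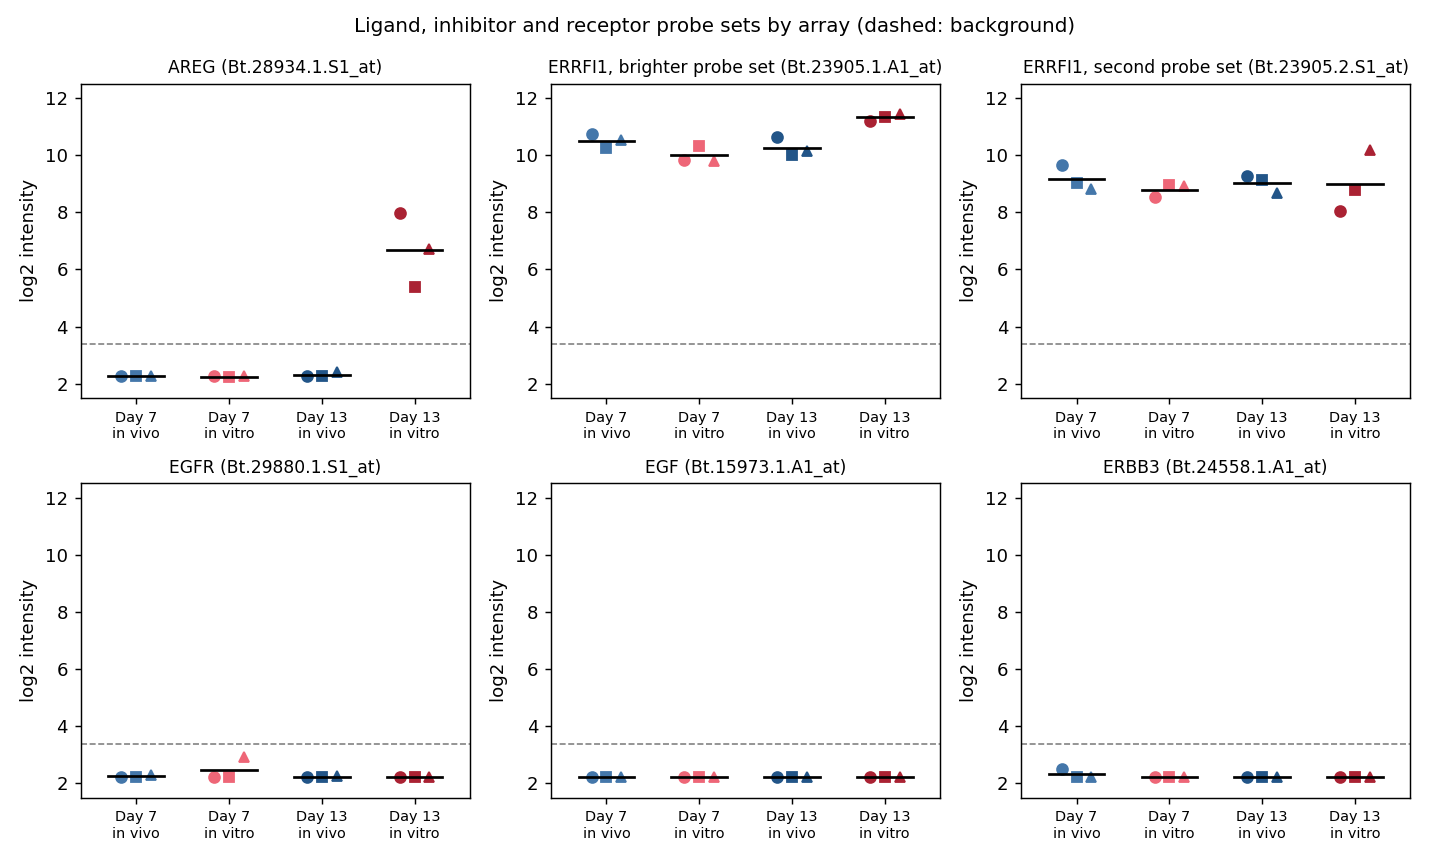
Log2 intensity (vertical axis) of AREG, of both ERRFI1 probe sets above background and of the brightest EGFR, EGF and ERBB3 probe sets in the 12 arrays, by group; circles, squares and triangles are replicates 1, 2 and 3, bars are group means and the dashed line is the background of 3.39. AREG lies at 5.38 to 7.99 in Day 13 in vitro pools and at or under 2.42 elsewhere, while EGFR, EGF and ERBB3 stay below the dashed line on every array.

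The AREG difference between Day 7 and Day 13 in embryos of in vitro origin is given without a test, because the members were chosen by it. It amounted to 4.45 ± 0.52 (SE of the fit) on the log2 scale. As the Day 7 arrays lay at background, AREG was at least 9.88-fold higher, a bound computed from the background. In embryos of in vivo origin, the same interval gave a difference of 0.06 ± 0.52 (adjusted p = 1) with all 6 arrays at background. The in vitro contrast holds none of these arrays, but the SE is pooled over all groups and is not independent of it. That SE rests mostly on the spread of the Day 13 in vitro arrays (SD 1.30, at most 0.09 in any other group). With only the 2 in vivo groups fitted it was 0.05. Readings at the floor cannot decide whether AREG changed below background in vivo.

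Between the origins at Day 13, AREG was at least 9.88-fold higher in vitro than in vivo, and the groups did not overlap. The fitted difference was 4.38 ± 0.52 (adjusted p = 0.00795, limma, over 24016 probe sets). This comparison uses the same Day 13 in vitro arrays as the choice of members, so it is not independent of it. The call ended when only the 6 arrays compared were fitted, which gave the same difference with an SE of 0.72 (adjusted p = 0.269). The SE of 0.52 pools these arrays with the Day 7 arrays, which lay at the floor with almost no spread. It also ended with the level of the poly-A spike-ins as a covariate (3.74 ± 0.95, adjusted p = 0.325). The other 22 of 24 alternatives kept the call, over a range of 3.73685e-08 to 0.324787 for all of them. Its low end came from leaving out Day 13 in vitro arrays 1 and 2, where the spread rests on arrays at the floor and the single array left has none of its own.

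At Day 7 AREG was at background in both origins (difference -0.01 ± 0.52, adjusted p = 1). This SE is also pooled over all groups, and was 0.008 with only the 2 groups compared. The in vitro day difference minus the in vivo day difference, called the difference of the day effect, was 4.39 ± 0.74 and missed the threshold (adjusted p = 0.0576). With values below background set to background it was 3.30 with an adjusted p of 0.166, and over the alternatives the adjusted p ran from 1.34e-07 to 0.327.

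The Day 13 in vitro arrays differed from the rest in the spike-in level, a measure of the array itself. The mean of 24 poly-A spike-in probe sets, which report RNA added before labelling, was 9.27, 10.5 and 13.0 in Day 13 in vitro pools 1, 2 and 3. In the other groups it ran from 13.3 to 15.0. The GAPDH 3' minus 5' difference reads both ends of one transcript. It was 2.53, 2.61 and 4.17 in Day 13 in vitro pools and 2.85 to 4.62 in Day 13 in vivo pools. Day 7 in vitro pools read 3.4 to 4.2, and Day 7 in vivo pools were the highest, at 5.58 to 5.66. The part of the GAPDH difference, and that of the spike-in level beyond the covariate fit above, was not tested. Between 41.3% and 42.0% of probe sets exceeded background on each array.

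AREG was not alone in this pattern. Counted after its values had been seen, 43 probe sets were above background on all 3 Day 13 in vitro arrays and at background on the other 9, or 0.179% of those tested, and 20 of them carried 1 gene symbol. The same pattern held for Day 13 in vivo arrays in 37 probe sets, for Day 7 in vitro arrays in 13 and for Day 7 in vivo arrays in 11.

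The inhibitor ERRFI1, which binds and silences the EGFR kinase, was above background in every pool. Its brighter probe set read 10.73, 10.26 and 10.53 in Day 7 in vivo pools and 9.84, 10.33 and 9.81 in Day 7 in vitro pools. It read 10.62, 10.01 and 10.15 in Day 13 in vivo pools and 11.20, 11.35 and 11.43 in Day 13 in vitro pools. The 3 Day 13 in vitro arrays were the highest of the 12 and lay close together (11.33 ± 0.12, SD, n = 3), while the other 3 groups overlapped.

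The day difference of this probe set in embryos of in vitro origin, 1.33 ± 0.20, also chose the members and is given without a test. In embryos of in vivo origin it was -0.25 ± 0.20 (adjusted p = 0.627). At Day 13 the in vitro pools were higher by 1.07 ± 0.20, with no overlap, and the difference missed the threshold (adjusted p = 0.0506). Of its 24 alternatives 6 passed, with adjusted p from 0.0163 to 0.681. At Day 7 the in vitro pools differed by -0.51 ± 0.20 (adjusted p = 0.693), and the difference of the day effect was 1.58 ± 0.29 (adjusted p = 0.0727, 0.0204 to 0.538 over the alternatives).

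The second ERRFI1 probe set above background did not show the Day 13 in vitro pools apart from the rest. It read 9.65, 9.04 and 8.82 in Day 7 in vivo pools and 8.52, 8.95 and 8.91 in Day 7 in vitro pools. The Day 13 in vivo pools read 9.26, 9.12 and 8.68. In Day 13 in vitro pools it read 8.05, 8.77 and 10.18, which are the lowest of the 12 values, a middle one and the highest. Its difference between the origins at Day 13 was -0.02 ± 0.49 (adjusted p = 1) and its day difference in vitro was 0.21 ± 0.49. The ERRFI1 probe sets above background thus differed in what they showed at Day 13. The remaining ERRFI1 probe sets reached at most 2.63 and 2.27.

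The gap between the ERRFI1 probe sets, the first minus the second, measured this disagreement within each array. It was 3.15, 2.58 and 1.25 in Day 13 in vitro pools 1, 2 and 3. In the other groups it ran from 0.894 to 1.71, so pool 3 fell among them and pools 1 and 2 did not. Pools 1 and 2 also had the lowest spike-in means, but that of pool 3, at 13.0, was below the other groups (13.3 to 15.0) too. The relation of the gap to the spike-ins was not tested.

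**Figure D2:**
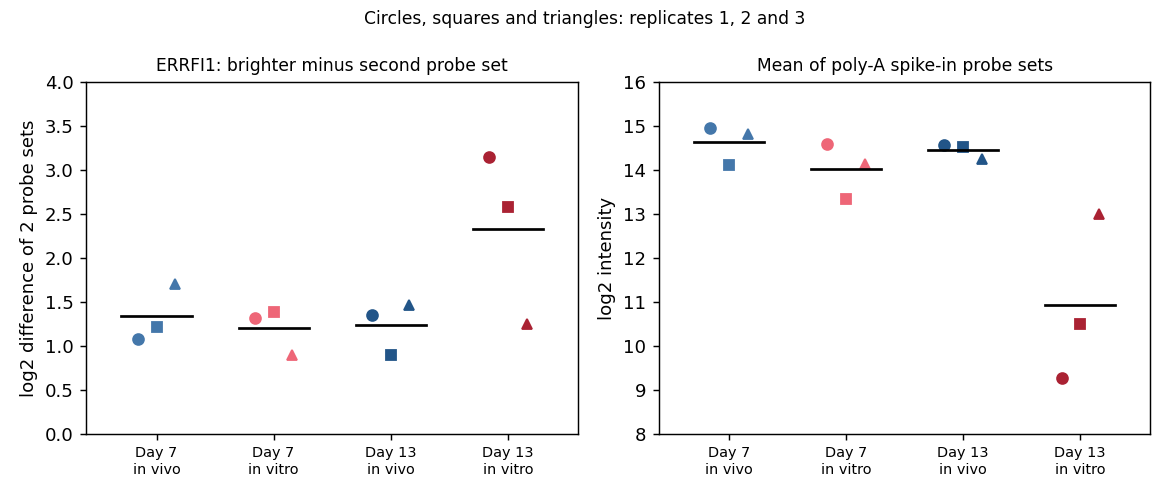
Left, log2 difference between the brighter and the second ERRFI1 probe set on each array; right, mean log2 intensity of 24 poly-A spike-in probe sets on each array; bars are group means. Day 13 in vitro replicates 1 and 2 stand apart in both panels, with gaps of 3.15 and 2.58 and spike-in means of 9.27 and 10.5.

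The receptors EGFR and ERBB3 and the ligand EGF were not above background in any pool. The brighter EGFR probe set read 2.23, 2.23 and 2.30 in Day 7 in vivo pools and 2.23, 2.23 and 2.94 in Day 7 in vitro pools. In Day 13 pools it read 2.23 to 2.27. The value of 2.94, in Day 7 in vitro replicate 3, was the highest of any member probe set at background. The second EGFR probe set and the EGF probe set read 2.23 on all 12 arrays. The ERBB3 probe sets reached 2.50 and 2.40 in single Day 7 in vivo pools and 2.23 or little more elsewhere. These readings bound the signal of these probe sets and say nothing of protein.

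At most 2 of the 10 member probe sets were called in any contrast. The counts at an unadjusted p under 0.05 (limma) have no share over all probe sets beside them. In the in vivo day contrast 0 of 10 were called, with 0 at an unadjusted p under 0.05, beside 3.79% of all probe sets. In the in vitro day contrast, which the choice of members used, 2 of 10 were called beside 7.51%. Between the origins, 0 of 10 were called at Day 7 (limma, 1 at an unadjusted p under 0.05) beside 0.208%, and 1 of 10 at Day 13 (2 unadjusted) beside 1.20%. For the difference of the day effect 0 of 10 were called (2 unadjusted) beside 0.400%. Without Day 13 in vitro replicate 3 the last pair of contrasts gave 2058 and 1083 calls over all probe sets in place of 288 and 96.

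**Figure D3:**
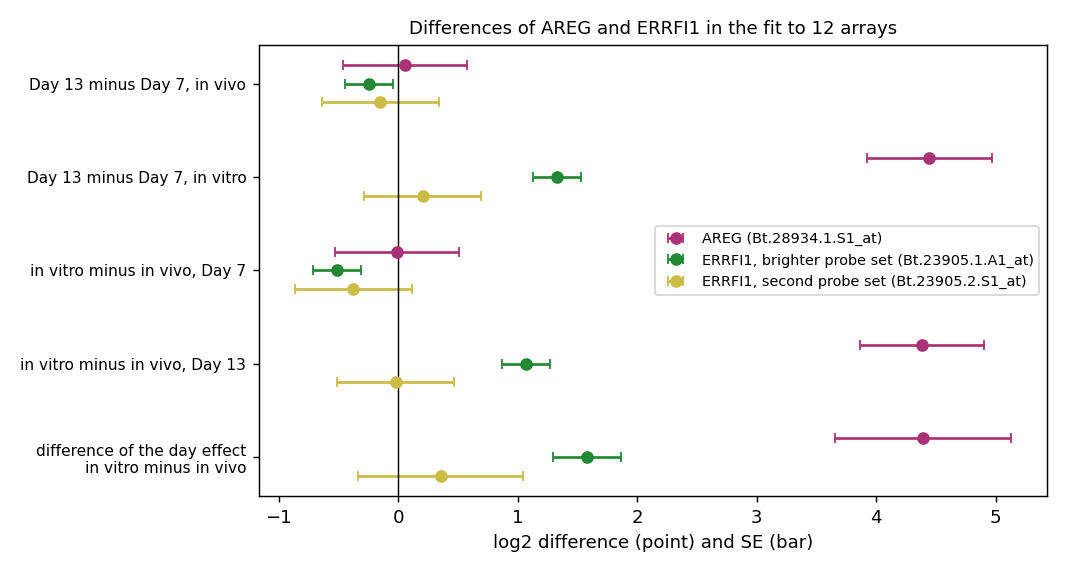
Log2 differences (points) with SE (bars) of AREG and of both ERRFI1 probe sets above background in the 5 contrasts of the fit to 12 arrays. In vivo origin day differences and Day 7 origin differences lie within 0.51 of 0, and the contrasts that hold the Day 13 in vitro arrays set AREG at 4.38 to 4.45 and the probe sets of ERRFI1 apart.

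Genes whose profile over the 12 arrays was most like a member's were found among the 5751 other genes above background on at least 3 arrays. For AREG these were AP1M1, a subunit of a clathrin adaptor (Pearson r = 0.995), TMEM38B, an endoplasmic reticulum potassium channel (0.993), and ABHD6, a monoacylglycerol lipase (0.982). AP1M1 read 5.89, 5.55 and 5.83 in Day 13 in vitro pools and 5.17 on each other array. That 5.17 is above the background of 3.39 but hardly varied between arrays, as values at a floor do. The single background level may thus count some floor values as signal. TMEM38B read 7.01, 5.42 and 5.59 there and at most 2.70 elsewhere, and ABHD6 read 9.09, 8.75 and 8.88 there and at most 7.66 elsewhere. For ERRFI1 they were TFAP2A, a trophoblast and ectoderm transcription factor (0.938), FAM120A, an RNA-binding protein (0.908), and NUP43, a nuclear pore subunit (0.900). TFAP2A read 9.68, 9.98 and 9.86 in Day 13 in vitro pools and 5.07 to 8.33 elsewhere. These r values describe points that share arrays, and for AREG they rest on the step between 9 and 3 arrays.

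The other genes of the pathway were taken from 6 lists of 108 entries, of which 67 had a probe set, and are read against all 9155 genes. In the in vivo day contrast 2.70% of all genes were called higher and 2.80% lower, and in the in vitro day contrast 5.00% and 5.77%. Between the origins the shares were 0.218% higher in vitro and 0.0765% lower at Day 7, and 0.852% and 0.786% at Day 13. Each median over all genes was 0. These shares are of adjusted calls, and the list counts at an unadjusted p under 0.05 (limma) have no share over all genes beside them. Centring the arrays on 61 ribosomal protein genes instead moved that median by -0.50 and 0.15 in the in vivo and in vitro day contrasts, and by -0.54 and 0.11 between the origins at Day 7 and Day 13. With it the in vivo split of 247 genes higher and 256 lower became 221 and 783, and the Day 7 split of 20 and 7 became 10 and 20. A second quantile normalization changed the Day 7 split to 15 and 10 and the Day 13 split of 78 and 72 to 60 and 91.

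Of 7 further EGF family ligands and receptors, 2 were measured and 1 of these was at background throughout. NRG1, a neuregulin that binds ERBB3, read 5.34, 4.69 and 4.51 in Day 7 in vitro pools and 2.45, 2.35 and 2.35 in Day 13 in vitro pools. It was at least 2.74-fold lower at Day 13 (-2.46 ± 0.57, adjusted p = 0.0355), the 1 call of the list in any contrast and the 1 gene with an unadjusted p under 0.05 (limma). That call was lost in 13 of 24 alternatives, among them the omission of any in vitro array, any Day 13 in vivo array or Day 7 in vivo array 3 (adjusted p up to 0.133) and the spike-in covariate (0.73). In Day 7 in vivo pools NRG1 ranged from 2.45 to 5.07, across the background.

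Calls among the sheddases and maturation factors were all for higher levels with age. Of 11 genes listed 8 were measured, 3 of them at background throughout. With age 1 was higher in vivo and 2 in vitro, and 0 were lower (medians 0.12 in vivo and 0.70 in vitro). Of all genes 2.70% were called higher in vivo and 5.00% in vitro. Between the origins 0 were called at either day (limma, 1 at Day 7 and 4 at Day 13 with an unadjusted p under 0.05). FURIN, a proprotein convertase that activates ADAM proteases, read 4.83, 4.95 and 4.34 in Day 7 in vitro pools and 6.31, 6.44 and 6.17 in Day 13 in vitro pools. It rose by 1.60 ± 0.21 (adjusted p = 0.00357), with 0.95 ± 0.21 in vivo (adjusted p = 0.0524). The in vitro call was lost with the spike-in covariate (0.13) and without Day 13 in vitro arrays 1 and 2 (0.0882).

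ADAM9, a sheddase of the same family as ADAM17, rose by 2.61 ± 0.45 in vivo (adjusted p = 0.0169) and by 2.32 ± 0.45 in vitro (adjusted p = 0.0183). It read 8.54, 9.51 and 8.51 in Day 7 in vivo pools and 11.92, 10.44 and 12.02 in Day 13 in vivo pools. Its 2 dimmer probe sets were at background on all 6 in vivo arrays, above background on 3 and 4 of the 12, and give no reading of the in vivo change. The first of them was at least 6.40-fold higher at Day 13 than at Day 7 in vitro (adjusted p = 0.0232). That in vivo call ended when pool 1 or 3 of either day was left out (adjusted p up to 0.0621). It ended too with a replicate block (0.065), with 2 groups (0.218), with the probe sets averaged, those at background included (0.567) and without Day 13 in vitro arrays 1 and 2. The in vitro call ended when Day 7 in vitro pool 1 or 3, or the first or second Day 13 in vitro pool, was left out (up to 0.0755), with the block (0.0603), with the covariate (0.677) and without both of those Day 13 pools (0.297). ADAM10, another sheddase of EGF family ligands, differed by 1.60 ± 0.34 between the origins at Day 13 (adjusted p = 0.0685) and by 1.15 ± 0.34 between the days in vitro (adjusted p = 0.0889). Its second probe set differed by 4.55 ± 0.91 between the origins at Day 13 (adjusted p = 0.0597) and was called in the in vitro day contrast (3.64 ± 0.91, adjusted p = 0.0477). In that probe set the Day 13 in vitro pools read 10.04, 9.36 and 6.12. The remaining ADAM10 probe set differed, in the same order, by 1.86 ± 0.66 and 1.53 ± 0.66 (adjusted p = 0.216 and 0.250).

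Most adaptors that dock on the receptors were not called. Of 28 listed, 20 were measured and 2 of these were at background throughout. With age 1 was lower in vivo and 3 in vitro, beside 2.80% and 5.77% of all genes, and 0 were higher. The list medians were -0.19 in vivo and -0.001 in vitro. Between the origins 0 were called at either day (limma, 1 at Day 7 and 6 at Day 13 unadjusted). PLCG1, the phospholipase recruited to activated EGFR, read 8.83, 10.68 and 9.96 in Day 7 in vivo pools and 7.34, 6.29 and 7.51 in Day 13 in vivo pools. It fell by 2.77 ± 0.47 in vivo (adjusted p = 0.0159) and by 3.46 ± 0.47 in vitro (adjusted p = 0.00401), with no overlap. The in vivo call was lost with 2 groups (0.227), with the replicate block (0.0543), without Day 7 in vivo replicate 3 (0.0506) and without Day 13 in vitro arrays 1 and 2 (0.052). The in vitro call was lost with the covariate (0.1) and without those arrays (0.093).

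GRB7, an adaptor that binds ERBB receptors, fell by 1.67 ± 0.25 in vitro (adjusted p = 0.00589), from 4.94, 4.35 and 5.06 to 2.88, 3.05 and 3.40. The first 2 of these Day 13 readings are at background and the third just above it. The same 3.40 was read in Day 7 in vivo pool 1 and Day 13 in vivo pool 3, as values at a floor are. The size of the fall is thus limited by the background. HGS, which sorts internalized receptors for degradation, fell by 1.79 ± 0.40 in vitro (adjusted p = 0.0297). HGS was lost in 8 alternatives: without Day 7 in vitro array 1 or 3, Day 13 in vitro array 1 or 2, or Day 13 in vivo array 3 (up to 0.11), with 2 groups (0.0557), with the covariate (0.68) and without Day 13 in vitro arrays 1 and 2 together (0.331). GRB7 was lost with 2 groups (0.0587), the covariate (0.278) and without Day 13 in vitro arrays 1 and 2 (0.145). GAB1, a docking protein that links EGFR to PI3K, differed by 2.29 ± 0.64 between the origins at Day 13 (adjusted p = 0.135), with 9.24, 8.36 and 6.47 in Day 13 in vitro pools.

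Of 16 RAS and ERK cascade genes 10 were measured, all of them above background on at least 1 array. With age 0 were called in vivo (limma, 1 unadjusted), and 1 was higher in vitro with 0 lower. Between the origins 0 were called at either day (0 at Day 7 and 4 at Day 13 unadjusted). The called gene was NRAS, a RAS GTPase, which read 11.44, 11.70 and 11.24 in Day 7 in vitro pools and 13.06, 12.74 and 12.71 in Day 13 in vitro pools. It rose by 1.38 ± 0.18 (adjusted p = 0.00335), a call lost with the spike-in covariate (0.182) and without Day 13 in vitro arrays 1 and 2 (0.0694). MAP2K1, the kinase that activates ERK, differed by 2.48 ± 0.66 (adjusted p = 0.0603) over the same interval. HRAS and BRAF differed by -1.18 ± 0.39 and -1.31 ± 0.51 (adjusted p = 0.128 and 0.191).

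On the PI3K and AKT branch 7 of 15 genes were measured, 1 of them at background throughout, and 0 were called in any contrast (limma, with 0 in the in vivo day contrast and 1 in each other at an unadjusted p under 0.05). RPS6KB1, a ribosomal S6 kinase, differed by 2.25 ± 0.63 between the days in vitro (adjusted p = 0.0739). Its dimmer probe set, at background on all other arrays, was at least 5.50-fold higher in Day 13 in vitro than in Day 7 in vitro pools (adjusted p = 0.0189). Over the same interval AKT1 differed by -0.32 ± 0.17 (adjusted p = 0.417) and PIK3R2 by -1.05 ± 0.46 (adjusted p = 0.260). PIK3CA, at background in Day 7 in vivo pools, read at least 1.30-fold higher in Day 7 in vitro pools and did not pass (adjusted p = 0.595).

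By number, though not by share of the genes measured in every contrast, response and feedback genes of ERK gave the most calls of the 6 lists. Of 31 listed, 20 were measured and 3 of these were at background throughout. With age 3 were higher in vivo (MYC, ETS1 and ETS2) and 4 in vitro (MYC, EGR1, SPRY1 and ATF3), and 0 were lower. Of all genes 2.70% were called higher with age in vivo and 5.00% in vitro. At Day 13 MYC was higher in vitro than in vivo and ETS1 lower, and at Day 7 0 were called (limma, 1 at an unadjusted p under 0.05). Unadjusted, 9 of the 20 were under 0.05 between the origins at Day 13, in either direction, with no such share over all genes to set beside it. Medians were 0.25 in vivo and 0.30 in vitro for the day contrasts, and 0.32 between the origins at Day 13.

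MYC, a transcription factor that drives cell growth, was called in both day contrasts and between the origins at Day 13. It read 3.44, 2.65 and 3.34 in Day 7 in vivo pools and 2.65 in each Day 7 in vitro pool. It read 5.18, 5.37 and 5.73 in Day 13 in vivo pools and 6.90, 7.38 and 6.45 in Day 13 in vitro pools, with no overlap between days or between the Day 13 groups. It rose by 2.28 ± 0.28 in vivo (adjusted p = 0.00295), a call lost with 2 groups (0.0676). In vitro its Day 13 level was higher by at least 11.4-fold (4.25 ± 0.28, adjusted p = 7.67e-05), a call kept by all 24 alternatives. The Day 13 difference between the origins was 1.48 ± 0.28 (adjusted p = 0.0481). It was lost in 16 of 24 alternatives, with 0.131 with the replicate block and 1 with the covariate. Leaving out any single array except Day 7 in vivo 2 and Day 13 in vitro 3 ended it too (up to 0.159).

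EGR1, an immediate early transcription factor of ERK signalling, read 7.06, 6.85 and 4.65 in Day 7 in vitro pools and 11.21, 10.57 and 10.02 in Day 13 in vitro pools. It rose by 4.42 ± 0.88 (adjusted p = 0.0201). In vivo it read 4.93, 7.00 and 7.71 at Day 7 and 8.28, 7.35 and 6.61 at Day 13, and these groups overlapped. Between the origins at Day 13 it differed by 3.19 ± 0.88 (adjusted p = 0.135). The in vitro call ended without Day 7 in vitro replicate 3 (0.0625), Day 13 in vitro replicate 1 (0.0821) or replicate 2 (0.0696). It also ended with 2 groups (0.0839), the block (0.0554), the covariate (0.597) and without Day 13 in vitro arrays 1 and 2 (0.331).

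SPRY1, a feedback inhibitor of receptor tyrosine kinase signalling, read 2.24 on all 6 Day 7 arrays and 6.59, 5.31 and 3.91 in Day 13 in vitro pools. In Day 13 in vivo pools it read 3.44, 2.24 and 2.24. It was at least 3.68-fold higher at Day 13 than at Day 7 in vitro (3.02 ± 0.60, adjusted p = 0.0194). The call ended without any single Day 7 in vitro array or without Day 13 in vitro replicate 2 (up to 0.0714), with 2 groups (0.149), with the covariate (0.832), with values set to background (0.0889) and without arrays 1 and 2 (0.149). Between the origins at Day 13 it differed by 2.63 ± 0.60 (adjusted p = 0.0833).

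**Figure D4:**
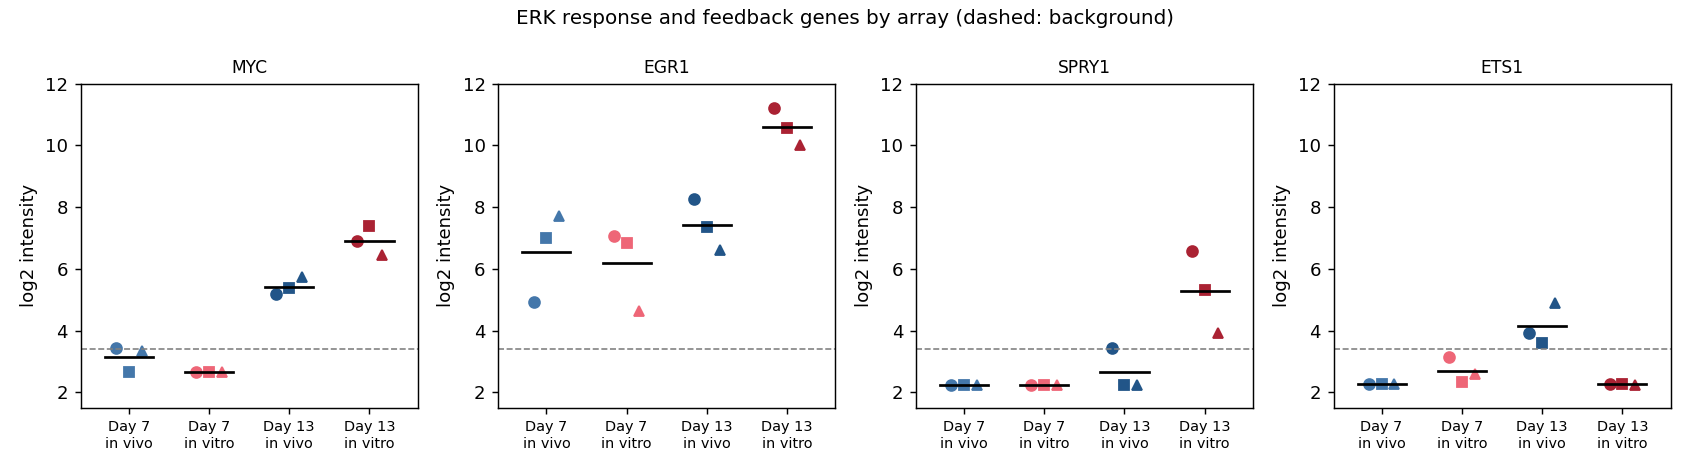
Log2 intensity of MYC, EGR1, SPRY1 and ETS1 in the 12 arrays, by group; circles, squares and triangles are replicates 1, 2 and 3, bars are group means and the dashed line is the background of 3.39. MYC separates the days in both origins, EGR1 and SPRY1 are highest in Day 13 in vitro pools, and ETS1 is above background only in Day 13 in vivo pools, at 3.61 to 4.90.

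ETS1, a transcription factor phosphorylated by ERK, went the other way between the Day 13 groups. It read 3.91, 3.61 and 4.90 in Day 13 in vivo pools and 2.27, 2.27 and 2.23 in Day 13 in vitro pools. It was at least 1.68-fold higher at Day 13 than at Day 7 in vivo (1.87 ± 0.32, adjusted p = 0.0148). It was at least 1.68-fold lower in vitro than in vivo at Day 13 (-1.89 ± 0.32, adjusted p = 0.0324). The first call was lost with ribosomal protein centring (0.0577), 2 groups (0.171), values set to background (0.272) and without Day 13 in vitro arrays 1 and 2 (0.0542). The second was lost in 14 of 24 alternatives. Among them were the omission of any Day 7 array, of Day 13 in vitro array 1 or 2, or of Day 13 in vivo array 1 (up to 0.121). Others were values set to background (0.255), 2 groups (0.345) and the covariate (0.775). The other ETS1 probe set was above background on 1 array and was called in neither contrast. It differed by 0.73 ± 0.30 and -0.73 ± 0.30 (limma, adjusted p = 0.317 and 0.280).

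ETS2 and ATF3 were named after their values were seen, to complete the counts. ETS2, a trophoblast transcription factor, rose by 3.83 ± 0.74 in vivo (adjusted p = 0.0257), from 5.62, 6.97 and 8.01 to 10.34, 12.03 and 9.71. ATF3, a stress and immediate early factor, rose by 1.96 ± 0.47 in vitro (adjusted p = 0.0400), from 10.15, 9.76 and 10.00 to 12.20, 12.22 and 11.37. ETS2 was lost in 9 of 24 alternatives, among them the omission of Day 7 in vivo array 1 or 2, Day 13 in vivo array 1 or 2, or Day 13 in vitro array 2 (up to 0.0736) and the replicate block (0.0874). ATF3 was lost in 13, among them the omission of any Day 7 in vitro array, Day 7 in vivo array 1 or 2, Day 13 in vitro array 1 or 2, or Day 13 in vivo array 2 (up to 0.145) and the block (0.0845).

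Markers of the labelled tissue were found, and some markers of other tissues were above background too. All 11 measured trophoblast markers of 13 listed were above background on at least 3 arrays, and the log2 of their summed level ran from 14.05 to 15.14 in Day 7 pools, 15.83 to 16.08 in Day 13 in vivo and 15.90 to 16.56 in Day 13 in vitro pools. Of 3 measured epiblast markers 2 were above background on at least 3 arrays, and of 7 hypoblast markers 4. The epiblast sum was 9.04 to 11.24 in Day 7 pools, 11.21 to 11.93 in Day 13 in vivo and 9.77 to 10.32 in Day 13 in vitro pools. Its genes did not move together. CRIPTO read 2.39 to 6.64 in Day 7 pools, 11.14 to 11.65 in Day 13 in vivo and 9.72 to 10.27 in Day 13 in vitro pools. POU5F1 read 8.76 to 11.22, 6.72 to 9.43 and 4.51 to 5.30 in the same order, and SOX2 was at background in Day 13 pools. The hypoblast sum was 14.50 to 15.27 in Day 7 pools, 14.30 to 14.55 in Day 13 in vivo and 13.23 to 14.09 in Day 13 in vitro pools. Both sums separated the Day 13 groups, as AREG and the brighter ERRFI1 probe set did, and their part in those differences was not tested. AREG is also a gene of cumulus and granulosa cells, and of their 13 markers 9 were at background on every array, FSHR, LHCGR, CYP19A1, AMH and FOXL2 among them. Their log2 sum was 8.55 to 9.48 in Day 13 in vitro and 9.51 to 10.08 in Day 13 in vivo pools. Of the 13 only STAR and HAS2 were above background on all 12 arrays, and the part of such cells in the AREG difference was not tested. Of 9 oviduct and uterine epithelium markers 7 were at background throughout, with sums of 5.47 to 5.83 on all arrays. Of 7 blood markers 5 were, with sums of 5.12 to 5.38 in Day 13 pools and 5.96 to 8.60 in Day 7 pools. The blood marker HBB read 6.66 to 7.80 in Day 7 in vivo and 5.08 to 8.49 in Day 7 in vitro pools. ALAS2 reached 5.19 in Day 7 in vivo pools.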

How the data were processed

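The authors deposited normalized log2 intensities per probe set. RMA, GCRMA and limma appear in the submitters' processing notes with no version, so it is open whether RMA or GCRMA gave these values. Of 24128 probe sets, 112 array controls were left out of the tests. A gene was represented by its brightest probe set, and 13292 probe sets carried exactly 1 symbol. A model with 4 group means was fitted to all 12 arrays with limma 3.58.1 (lmFit, eBayes without trend) in R 4.3.3. P-values were two-sided, adjusted over 24016 probe sets by Benjamini and Hochberg and called below 0.05, with 8 residual and 0.379 prior degrees of freedom. The fit was tested on simulated data. With 3 pools a group, the number of arrays limits the precision. Where 1 group lay wholly at background, "at least" bounds the fold, and the adjusted p is that of the fit.

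The members, the lists and the rule for named genes were chosen with earlier results of these data known. Named were all member probe sets, up to 4 genes per list with the smallest adjusted p in any contrast, and the 3 genes most correlated with each member above background. The alternatives changed normalization, filter, fit, spread, probe set rule, background and single arrays.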

Additional observations from a re-analysis of the deposited data

How the results depend on the processing

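Member calls for the in vivo day contrast and the Day 7 origin contrast were 0 under every setting. For the in vitro day contrast they went from 2 to 1 with only the 2 groups compared, to 0 with the poly-A spike-in covariate and to 1 without Day 13 in vitro arrays 1 and 2 together, a setting chosen after seeing the data. Leaving out single arrays kept 2, but the members were chosen by this contrast, so its counts follow from that choice. Averaging all 4 ERRFI1 probe sets, 2 of them at background throughout, ended the call of ERRFI1 there (0.38, adjusted p = 0.206) and gave 0.23 (adjusted p = 0.542) between the origins at Day 13. For the Day 13 origin contrast the main count of 1 became 2 with median centring, with the background filter, with an intensity trend and with array weights, and 0 with only the 2 groups and with the covariate. It ran from 1 to 2 when single arrays were left out, with 2 without Day 13 in vitro replicate 3 or Day 13 in vivo replicate 1. For the difference of the day effect the main count of 0 became 1 with a second quantile normalization, with ribosomal protein centring, with array weights and without arrays 1 and 2, and 2 with median centring and with the filter. It ran from 0 to 2 when single arrays were left out. The replicate block changed no member count (2 in the in vitro day contrast, 1 in the Day 13 origin contrast). No pairing by number was seen: of 18 pairs with a common number, 3 had an r above 0.1 after removal of group means. The median was -0.064 and the range -0.647 to 0.425. With 3 arrays a group these values cannot settle whether the samples were paired. Across all probe sets the in vitro day contrast gave 1804 calls, but 2886 of 10591 with the filter, 8237 with array weights, whose estimate stopped before convergence, 787 with 2 groups, 197 with the covariate and 902 without arrays 1 and 2. Without Day 7 in vitro 1 or 3 or Day 13 in vitro 1 or 2 it gave 913 to 1001, and 2898 without Day 13 in vitro 3. The Day 13 origin contrast gave 288, but 477 with median and 696 with ribosomal protein centring, 1215 with the filter, 2235 with array weights, 0 with 2 groups (limma), 119 with the block, 9 with the covariate and 459 without arrays 1 and 2. It gave 135 to 191 without Day 13 in vitro 1 or 2 or without any Day 7 array but in vitro 3 and in vivo 2, and 2058 without Day 13 in vitro 3. The in vivo day contrast gave 911, but 1793 with ribosomal protein centring, 1478 with the filter, 604 with weights, 241 with 2 groups and 568 with the block. The Day 7 origin contrast gave 50, but 81 with the filter, 172 with weights, 3 with 2 groups, 29 with the covariate, 12 with the block and 13 without arrays 1 and 2. It gave 24 without Day 13 in vitro 1 or 2 or Day 13 in vivo 3, and 76 to 116 without Day 7 in vitro 2 or any Day 7 in vivo array. The difference of the day effect gave 96, but 211 with ribosomal protein centring, 278 with the filter, 460 with weights, 11 with the covariate, 47 with the block and 424 without arrays 1 and 2. It gave 147 to 193 without any Day 13 in vivo array and 1083 without Day 13 in vitro 3. Of the values of single genes, 2747 kept direction and side of the threshold, 128 lost a call, 98 gained one, 121 uncalled differences changed sign and 0 calls reversed. The causes were not tested. Signal at or near background limits AREG's own comparison groups, since only bounds exist there.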

Other observations

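FOS, IER2, IER3 and DUSP1 were left out by the naming rule and were picked from the ERK list after their values were seen. The other immediate early genes that the rule left out were not compared here. FOS, a subunit of the AP-1 transcription factor, read 14.59, 13.79 and 12.91 in Day 13 in vitro pools and 10.35, 10.49 and 9.91 in Day 7 in vitro pools, a difference of 3.51 ± 0.92 that missed the threshold (adjusted p = 0.058, limma). Its Day 13 difference between the origins was 3.41 ± 0.92 (adjusted p = 0.125). In Day 13 in vivo pools FOS ran from 9.05 to 12.20, which overlapped both Day 7 groups. IER2, IER3 and DUSP1, other early response genes, differed by -0.20 ± 0.52, 0.23 ± 0.77 and 0.58 ± 0.44 between the days in vitro (adjusted p = 1, 1 and 0.629).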
